A study of Homo sapiens with 6 samples.

Results

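The matrix metalloproteinases (MMP), the ADAMTS proteinases, the ADAMTS-like proteins and the tissue inhibitors of metalloproteinases (TIMP) were followed in quiescent hTERT RPE1 cells given a microtubule-depolymerizing drug or its solvent. The genes were chosen by symbol alone, as an MMP, ADAMTS or ADAMTSL name followed by a number, or TIMP1 to TIMP4. This gave 49 of the 38900 gene IDs in the deposited table, made up of 22 MMP, 18 ADAMTS, 5 ADAMTSL and 4 TIMP genes. ADAMTS13 was not analysed here. hTERT RPE1 is an established human line of retinal pigment epithelial cells immortalised with telomerase. All cultures had been held at full confluency for 5 days to become quiescent and were then put in fresh medium. The treated group received 100 nM combretastatin A4 (CA4), a small molecule that binds tubulin and depolymerizes microtubules, and the control group 0.1% DMSO, its solvent, both for 6 hours. Each group had 3 polyA RNA sequencing libraries from this 1 cell line, numbered 1 to 3. The labels do not tie equal numbers to the same culture. Library values are given below in the order of replicates 1, 2 and 3.

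MMPs and ADAMTS proteins are zinc-dependent proteinases made as inactive precursors, and between them they cut collagens, proteoglycans, fibrillin, growth factor precursors and each other. ADAMTS-like proteins share the accessory domains of the ADAMTS family but have no catalytic domain, and several of them bind fibrillin microfibrils. TIMPs bind the active site of these enzymes. In the eye, the retinal pigment epithelium secretes both enzymes and inhibitors into the membrane beneath it, and changes in TIMP3 cause an inherited degeneration of that tissue.

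The libraries held 19524936 to 22538004 recovered reads, and their values are normalized counts, which are reads scaled per library by the authors, so that 1 read was worth 0.935 to 1.12 normalized counts. On the first principal component of all tested genes, with 34.4% of the variance, DMSO replicate 1 lay at -10.9, nearer to the CA4 libraries (17.2 to 43.1) than the other DMSO libraries did (-45.4 and -35.4). Of 10 genes that mark retinal pigment epithelium, 5 had a mean of at least 10 normalized counts (MITF, OTX2, BEST1, RPE65 and PMEL), while DCT and TTR were listed at 0 in every library. Their summed level was 1129 to 1835 normalized counts in DMSO and 636 to 1031 with CA4. Of 4 epithelial markers, the keratins KRT8 and KRT18 had means of 15046 and 11025 normalized counts over the 6 libraries, while CDH1 and EPCAM, which mark cell contacts of many epithelia, had means of 8.96 and 0.901. The epithelial list summed to 22545 to 25480 normalized counts in DMSO and 25984 to 31429 with CA4, without overlap, and KRT18 lay at 8393 to 10397 in DMSO and 11056 to 14919 with CA4. Of 5 leukocyte markers, CD68, a lysosomal protein, had 499.7 to 921 normalized counts in each library, PTPRC did not exceed 10.6 and CD14 did not exceed 2.23, and ITGAM and CD3E were at 0. The leukocyte list summed to 721 to 925 in DMSO and 510.3 to 717 with CA4. The fibroblast list (PDGFRA, PDGFRB, LUM, DCN and COL1A1) was present in all libraries, at a summed 39713 to 69930 normalized counts in DMSO and 29908 to 59854 with CA4. The endothelial list of 5 genes summed to 1138 to 1661 in DMSO and to 1818, 1472 and 3470 with CA4, so that only CA4 replicate 3 lay far outside the DMSO range. The photoreceptor markers CRX, NRL and RCVRN summed to 32.7 to 63.6 normalized counts in DMSO and 51.6 to 92.8 with CA4, with RCVRN at no more than 1.11 in any library. The part that these differences have in the results below was not tested. In bulk RNA, fewer cells that express a gene and less RNA per cell cannot be told apart.

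Transcripts of a few members made up most of the family. Per kilobase of exon (the merged exons of GENCODE 29), MMP2 stood first with 20308 ± 2324 normalized counts per kilobase in DMSO (SD, n = 3). It was followed by MMP14 with 6312 ± 681, TIMP2 with 4478 ± 477 and TIMP1 with 1724 ± 86 (SD, n = 3 each). In DMSO the ranges of these 4 genes over the 3 libraries did not overlap, so their order was the same in each library. MMP2 alone made up 57.4% ± 3.2 of the summed per-kilobase level of all 49 genes in DMSO and 53.7% ± 3.34 with CA4 (SD, n = 3 each). MMP14 took 18% ± 3.09 and 22.7% ± 3.56 of it, and TIMP2 12.7% ± 0.532 and 11.6% ± 0.577 (SD, n = 3 each). Levels per kilobase depend on which isoforms the cells make, which these gene counts do not show. ADAMTS12 was the highest of the ADAMTS genes with 690 ± 139 normalized counts per kilobase in DMSO, ahead of ADAMTS15 with 384 ± 89.6 (SD, n = 3 each). ADAMTS7 (276 ± 18.2) and ADAMTS10 (236 ± 81.5, SD, n = 3 each) came next, and their ranges over the DMSO libraries overlapped.

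**Figure D1:**
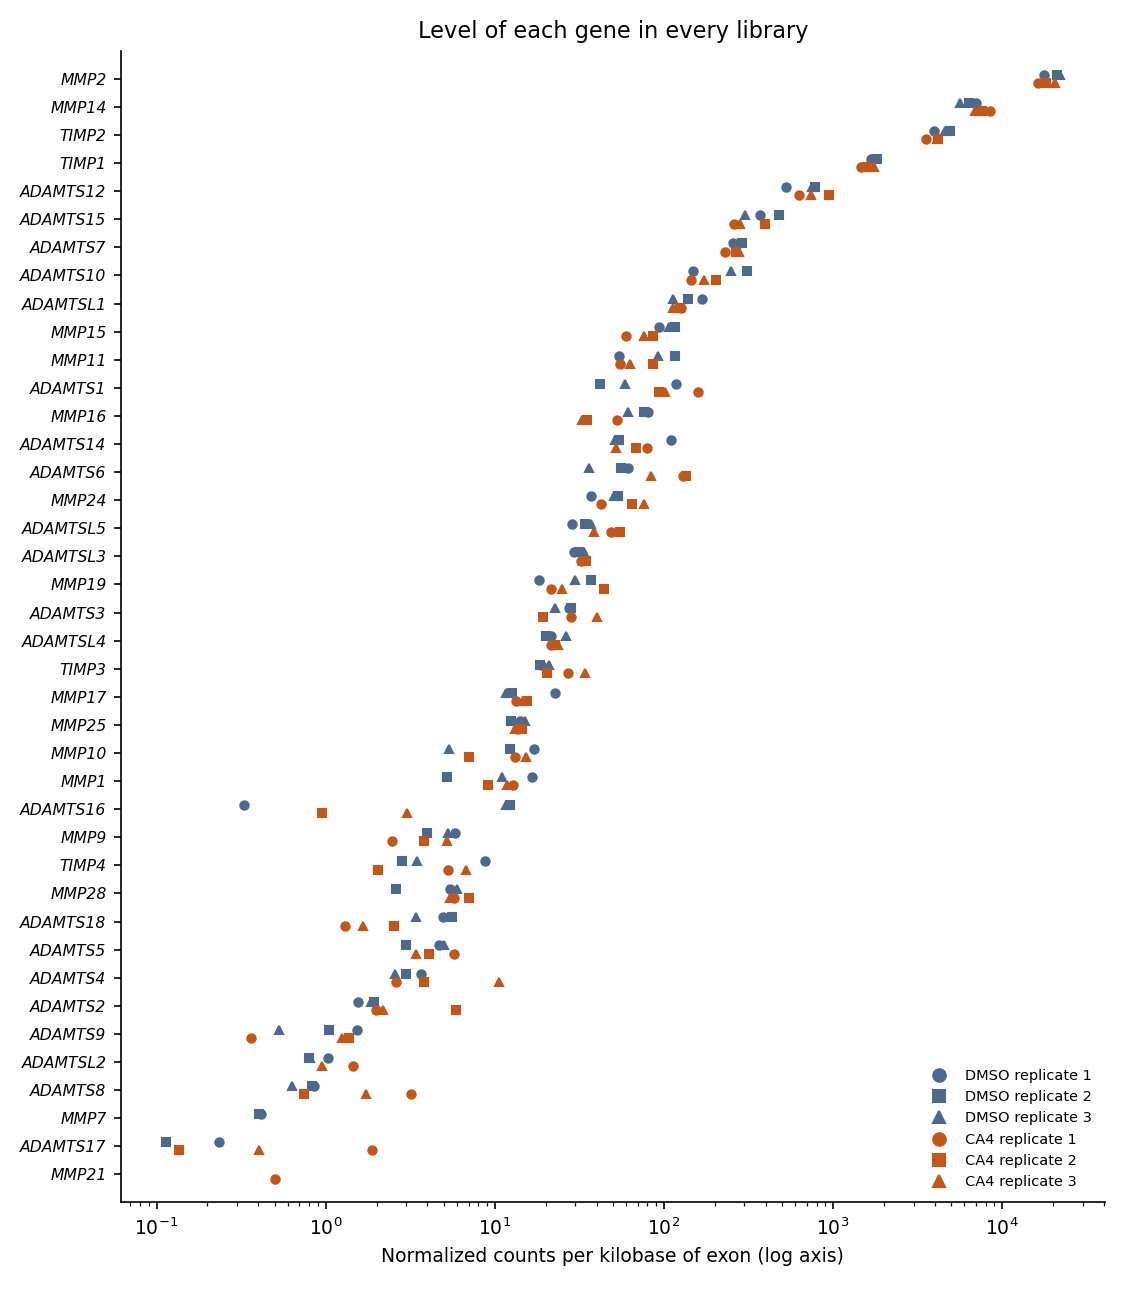
Normalized counts per kilobase of merged exon (log axis) for the 40 genes with at least 1 read, 1 point per library, with DMSO in blue, CA4 in orange and the replicate number as the shape; values of 0 cannot be drawn on this axis. MMP2, MMP14, TIMP2 and TIMP1 lie above all other genes, and the points of most genes mix between the groups.

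At the other end, 15 of the 49 genes had a mean under 10 normalized counts and were not tested, and 9 of these had no read in any library. The 9 were ADAMTS19, ADAMTS20, MMP3, MMP8, MMP12, MMP13, MMP20, MMP26 and MMP27. A count of 0 allows up to 3 reads, or 2.8 to 3.37 normalized counts depending on the library, and covers counting error only. The other 6, ADAMTS8, ADAMTS17, ADAMTSL2, MMP7, MMP21 and TIMP4, reached at most 15.5 normalized counts in a library. Most of the silent MMPs sit together. In GENCODE 29 (GRCh38), 9 MMP genes lie within 435 kb of chromosome 11, from 102520508 to 102955734, and 6 of these 9 had no read. Only MMP1, a collagenase, and MMP10, a stromelysin, reached the mean of 10 there. MMP1 had 32.8, 10.3 and 21.8 normalized counts in DMSO and 25.1, 18 and 23.4 with CA4. MMP10 had 29.9, 21.5 and 9.5 in DMSO and 23.2, 12.3 and 26.7 with CA4. In both genes the groups overlapped fully, and MMP9, the gelatinase besides MMP2, had 5.8 to 13.5 normalized counts in all 6 libraries. In GENCODE 29, 18.4% of the exon bases of MMP9 overlap SLC12A5-AS1 on the opposite strand.

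The 34 genes that reached a mean of 10 normalized counts were tested together with all other genes of that level, 13928 in all, with limma on log2(normalized count + 1). Fold changes are on that scale, which understates changes of low genes. ADAMTS6 was the 1 gene of the 34 past an adjusted p of 0.05, and it rose. Over all tested genes the share past the threshold was 4.94%, with 2.97% higher and 1.97% lower. With every library scaled to the same total, 279 genes of the table passed as higher and 523 as lower, in place of 413 and 275. At an unadjusted p under 0.05 there were 6 of 34, 3 higher and 3 lower, beside 23.0% of all tested genes. In 6 of 34 the 3 CA4 libraries lay wholly above or below the 3 DMSO libraries, beside 27.7% of all tested genes. Of these 6, 3 were higher (ADAMTS2, ADAMTS6 and ADAMTSL5) and 3 lower (ADAMTS18, MMP15 and MMP16), beside 14.3% and 13.4% of all tested genes. In ADAMTS2 the lowest CA4 library, at 17.4 normalized counts, was only just above the highest DMSO library, at 16.8. Its recovered reads overlapped, with 14, 18 and 17 in DMSO and 18, 46 and 17 with CA4. Fold changes of at least 2 in either direction were seen for 3 of 34 (ADAMTS6, ADAMTS16 and ADAMTS18), beside 5.72% of all tested genes. Signs were split evenly, with 17 log2 fold changes above 0 and 17 below, which became 13 and 21 under same total scaling and 20 and 14 under quantile normalization. The sign of 7 genes with small changes turned under a scaling, those of ADAMTS5, ADAMTS14, ADAMTSL3, ADAMTSL4, MMP17, MMP19 and MMP25. The median log2 fold change of all 34 genes was -0.0018, beside -0.0082 for all tested genes. It was -0.10 beside -0.11 with the same total per library and 0.07 beside -0.0083 under quantile normalization. Within groups the 34 genes had a median standard deviation of 0.38 on the log2 scale, beside 0.20 for all tested genes. The sets were not matched for level, with a mean of at least 50 in 24 of the 34 and in 11689 of the 13928.

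**Figure D2:**
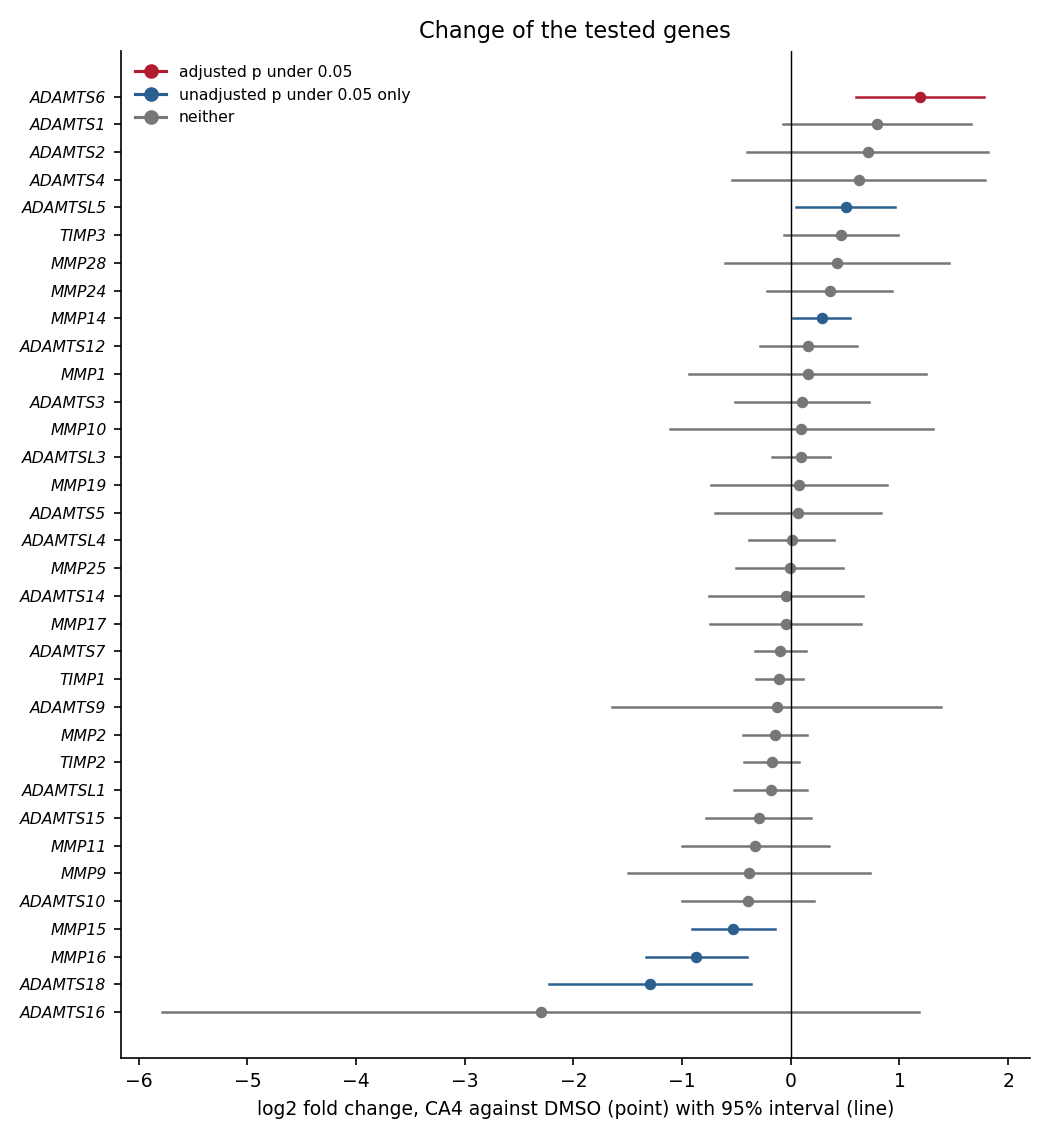
Log2 fold change of each of the 34 tested genes in CA4 against DMSO (point) with limma's 95% interval (line), coloured by whether the gene passed the adjusted threshold, only an unadjusted p under 0.05, or neither. ADAMTS6 at the top is the 1 gene past the adjusted threshold, and the intervals of 28 genes include 0.

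ADAMTS6 encodes a secreted proteinase close to ADAMTS10 that is linked to fibrillin microfibrils and to cell junctions. Its libraries held 529, 477 and 309 normalized counts in DMSO and 1113, 1159 and 719 with CA4. Every CA4 library lay above every DMSO library, although replicate 3 was the lowest in both groups. The mean went from 438 ± 115 to 997 ± 242 (SD, n = 3 each), or 2.28-fold. On the log2 scale this was 1.19 (limma: SE 0.25, adjusted p = 0.0425). The direction held without any 1 library, with log2 fold changes from 0.96 to 1.41, but the gene passed the threshold only without DMSO replicate 1, where the limma adjusted p was 0.0349. It was 0.111 without DMSO replicate 2 and 0.12 without DMSO replicate 3. Without CA4 replicates 1, 2 and 3 in turn it was 0.13, 0.0993 and 0.0527. The limma adjusted p was also 0.0554 under same total scaling, 0.0971 without the variance trend and 0.307 without a filter on low values.

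The gene lies on the minus strand of chromosome 5, from 65148736 to 65481920 (GENCODE 29, GRCh38). Its promoter is printed because it is the 1 member past the threshold, beside those of ADAMTS12, the most abundant ADAMTS, and of MMP14 and MMP15, membrane-anchored MMPs with opposite signs. Each window is 300 bases from RefSeq (GRCh38.p14), from 250 before the transcription start to 50 after it, read 5′ to 3′ along the gene. Capitals mark matches on either strand to TGANTCA (the AP-1 motif), AGGAAG (ETS) and GGAATG (TEAD).
ADAMTS6, chr5:65481871-65482170, minus strand: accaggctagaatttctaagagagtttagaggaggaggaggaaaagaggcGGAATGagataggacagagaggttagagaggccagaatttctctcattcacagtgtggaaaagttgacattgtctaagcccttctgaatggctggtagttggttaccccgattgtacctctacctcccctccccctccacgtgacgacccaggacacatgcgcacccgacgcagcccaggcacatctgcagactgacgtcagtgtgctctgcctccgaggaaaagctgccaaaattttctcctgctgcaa
ADAMTS12, chr5:33891941-33892240, minus strand: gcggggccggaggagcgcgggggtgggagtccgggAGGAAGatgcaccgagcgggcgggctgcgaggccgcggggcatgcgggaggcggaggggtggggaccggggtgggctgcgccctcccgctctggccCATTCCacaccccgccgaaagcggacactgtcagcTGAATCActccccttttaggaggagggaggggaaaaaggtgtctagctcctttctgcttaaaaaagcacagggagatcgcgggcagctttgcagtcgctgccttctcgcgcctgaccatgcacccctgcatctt
MMP14, chr14:22836335-22836634, plus strand: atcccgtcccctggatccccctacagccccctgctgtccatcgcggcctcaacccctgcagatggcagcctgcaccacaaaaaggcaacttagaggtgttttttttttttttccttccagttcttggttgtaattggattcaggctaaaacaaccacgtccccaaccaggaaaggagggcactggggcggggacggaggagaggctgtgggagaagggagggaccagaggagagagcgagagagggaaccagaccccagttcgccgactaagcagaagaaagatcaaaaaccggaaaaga
MMP15, chr16:58025504-58025803, plus strand: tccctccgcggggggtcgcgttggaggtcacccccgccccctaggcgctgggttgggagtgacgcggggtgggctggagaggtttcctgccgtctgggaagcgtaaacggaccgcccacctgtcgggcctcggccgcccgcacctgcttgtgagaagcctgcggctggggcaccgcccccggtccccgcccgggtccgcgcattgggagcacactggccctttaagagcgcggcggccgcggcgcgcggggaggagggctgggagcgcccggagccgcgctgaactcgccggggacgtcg
The ADAMTS6 window held 1 match, to the TEAD motif, starting 200 bases before the start. In ADAMTS12 all 3 motifs matched, while the windows of MMP14 and MMP15 held no match to these letters. RefSeq windows were found for 19 of the 34 tested genes (20 windows, since ADAMTS10 has more than 1). The AP-1 motif occurred in 2 of these 20 windows, those of ADAMTS12 and MMP10, beside 7.71% of all 35116 promoter windows. ETS letters occurred in 3 of 20 beside 33.6% of all windows, and TEAD letters in 2 of 20 beside 14%. The member windows were richer in G and C, with a median of 73.7% beside 58.7% over all windows. A match describes letters and is not evidence of binding.

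Membrane-anchored MMPs act at the cell surface. All 6 were tested and 0 passed the adjusted threshold, while 3 had an unadjusted p under 0.05, MMP14 with a higher and MMP15 and MMP16 with a lower mean, beside 23.0% of all tested genes at that p. With edgeR 0 of the 13 tested MMPs passed (3 at an unadjusted p under 0.05), beside 4.62% of all tested genes. With DESeq2 1 of 13 passed, MMP16, beside 11.6% of all tested genes. MMP16 had 981, 921 and 739.7 normalized counts in DMSO and 641, 427 and 400.1 with CA4. All 3 CA4 libraries were below all 3 DMSO libraries. Its log2 fold change was -0.87 (limma: SE 0.20, adjusted p = 0.0517), just short of the threshold. Small changes of method put it on the other side, with a limma adjusted p of 0.0495 under the robust variance prior, 0.0472 under 75th percentile scaling, 0.042 under same total scaling, 0.0451 among genes with a mean of at least 50, and 0.0334 without CA4 replicate 1. Others kept it short of the threshold, with 0.0614 under quantile normalization, 0.108 without the variance trend, 0.323 without a filter on low values, and 0.0857 to 0.166 without any 1 of the other 5 libraries. With edgeR the adjusted p was 0.0568. Its log2 fold change was below 0 in all 18 alternatives, from -1.08 to -0.74.

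**Figure D3:**
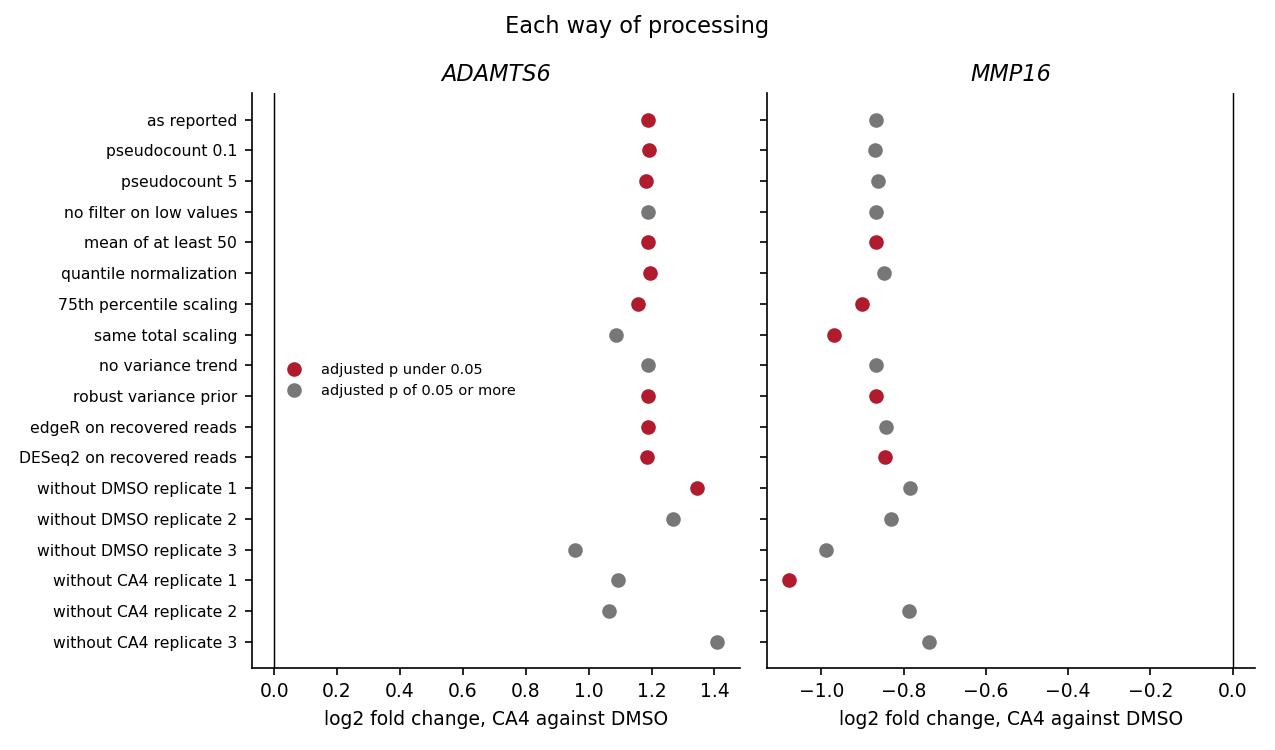
Log2 fold change of ADAMTS6 (left) and MMP16 (right) in CA4 against DMSO under each way of processing except the replicate block, red where the adjusted p was under 0.05 and grey otherwise. The size of both changes moved little, from 0.96 to 1.41 and from -1.08 to -0.74, while the side of the threshold varied.

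MMP15, which like MMP14 spans the membrane, had 416, 516 and 477 normalized counts in DMSO and 264, 384 and 337 with CA4. The groups did not overlap, and the log2 fold change was -0.53 (SE 0.17) with a limma adjusted p of 0.111. MMP14 had the opposite sign, with 31155, 28305 and 25075 normalized counts in DMSO and 37983, 33808 and 31099.9 with CA4. The lowest CA4 library lay just under the highest DMSO library, and the log2 fold change was 0.28 (limma: SE 0.11, adjusted p = 0.187). That value depended on scaling, at 0.18 with the same total and 0.09 under quantile normalization. MMP17, MMP24 and MMP25 had log2 fold changes of -0.05, 0.36 and -0.01, all with intervals that include 0. In GENCODE 29, 35.2% of the exon bases of MMP25 and 18.1% of those of MMP24 overlap genes on the opposite strand (MMP25-AS1 and MMP24OS). Whether the counting used strand is not given in the sources used here, so reads of these pairs cannot be told apart.

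MMP14, TIMP2 and MMP2 act in 1 system, in which TIMP2 bound to MMP14 at the cell surface docks the precursor of MMP2 for activation by a free MMP14. MMP2 had 87155, 104637 and 108751 normalized counts in DMSO and 80509, 89466 and 101288 with CA4. The groups overlapped, and the log2 fold change was -0.15 with a 95% interval from -0.44 to 0.15 (limma adjusted p = 0.534). TIMP2 had 22291, 27572 and 25805 in DMSO and 20056, 23638 and 23337 with CA4, also overlapping. Its log2 fold change was -0.17 (95% interval -0.43 to 0.08, limma adjusted p = 0.392). Ratios within a library do not depend on a factor applied to the whole library, although quantile normalization, which shifts genes unequally, can move them. The ratio of MMP14 to TIMP2 normalized counts was 1.4, 1.03 and 0.972 in DMSO and 1.89, 1.43 and 1.33 with CA4. DMSO replicate 1 lay inside the CA4 range, and the other DMSO libraries lay below it. The MMP2 to TIMP2 ratio was 3.97 ± 0.217 in DMSO and 4.05 ± 0.279 with CA4 (SD, n = 3 each), a difference smaller than the spread. The MMP14 to MMP2 ratio was 0.286 ± 0.0649 in DMSO and 0.386 ± 0.0826 with CA4 (SD, n = 3 each), and the groups overlapped here as well.

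**Figure D4:**
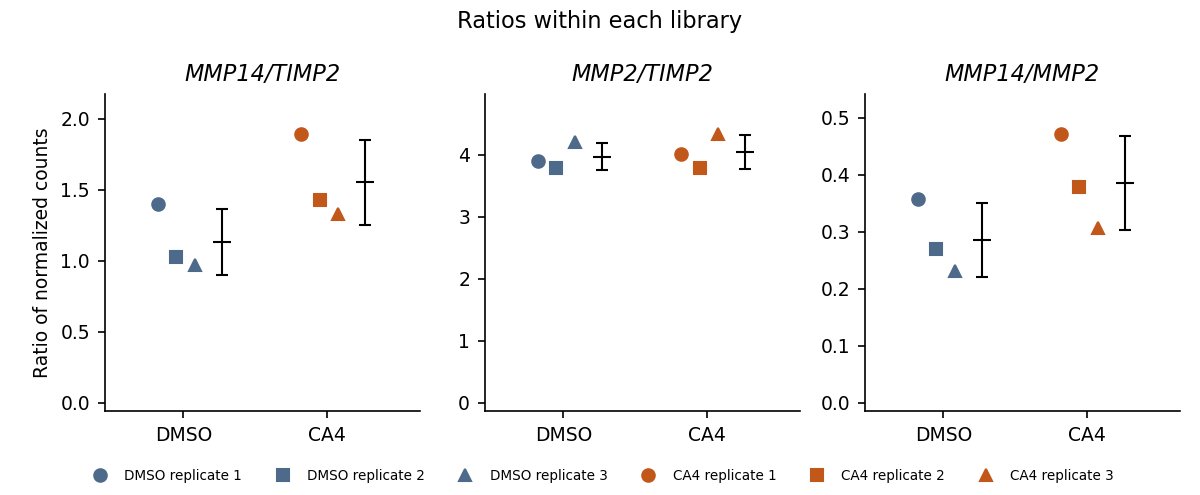
Ratios of normalized counts within each library for MMP14 to TIMP2, MMP2 to TIMP2 and MMP14 to MMP2, 1 point per library with the mean and SD of each group beside the points. Both ratios with MMP14 on top have higher means in CA4 with overlapping groups, and MMP2 to TIMP2 is level at 3.97 and 4.05.

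The inhibitors showed no called change. TIMP1, a soluble inhibitor, had 2572, 2809 and 2589 normalized counts in DMSO and 2258, 2438 and 2715 with CA4. Its log2 fold change of -0.11 had a 95% interval from -0.32 to 0.11 (limma adjusted p = 0.537), so that a 2-fold change in either direction lies outside the interval. The same holds for TIMP2 above. TIMP3, which is held in the matrix, was much less abundant, with 86.9, 85.1 and 96.9 normalized counts in DMSO and 126, 94.2 and 158 with CA4. CA4 replicates 1 and 3 lay above all DMSO libraries and replicate 2 within their range, with a log2 fold change of 0.46 (95% interval -0.07 to 0.98, limma adjusted p = 0.278). TIMP4 had 14.5, 4.67 and 5.7 normalized counts in DMSO and 8.7, 3.37 and 11.1 with CA4, and was too low to be tested. None of the 3 tested TIMPs passed in limma, edgeR or DESeq2, and 0 had an unadjusted p under 0.05 in any of these tools.

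Among the ADAMTS genes, 14 of 18 were tested, and 1 passed (ADAMTS6). The other fold changes past 2 belonged to genes with means under 50 normalized counts in each group. ADAMTS18, linked to eye development, had 32.8, 37.4 and 22.8 normalized counts in DMSO and 8.7, 16.8 and 11.1 with CA4. The groups did not overlap, and the log2 fold change was -1.29 (limma: SE 0.40, adjusted p = 0.107). ADAMTS16, which is known to cleave fibronectin, had the lowest log2 fold change of the family at -2.30, but its error was 1.49 (SE) and its limma adjusted p 0.409. It had 1.93, 72 and 68.4 normalized counts in DMSO and 0, 5.61 and 17.8 with CA4. DMSO replicate 1 was thus as low as the CA4 libraries, and without it the log2 fold change was -3.83 (limma adjusted p = 0.0988). It shrank to -1.14 without CA4 replicate 1 (limma adjusted p = 0.738) and to -1.51 without DMSO replicate 2 (limma adjusted p = 0.715). ADAMTS10, the enzyme closest to ADAMTS6 and likewise tied to fibrillin microfibrils, had 851, 1773 and 1420 normalized counts in DMSO and 823, 1159 and 988 with CA4. The log2 fold change was -0.39 (limma: SE 0.26, adjusted p = 0.418), and the groups overlapped. It ran from -0.69 without DMSO replicate 1 (limma adjusted p = 0.0598) to -0.16 without DMSO replicate 2 (limma adjusted p = 0.796).

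ADAMTS12 and ADAMTS7, which cleave cartilage oligomeric matrix protein, had small fold changes. ADAMTS12 had 5181, 7646 and 7406 normalized counts in DMSO and 6128, 9216 and 7253 with CA4. Its log2 fold change was 0.16 (95% interval -0.29 to 0.61, limma adjusted p = 0.667), and it turned to -0.019 without DMSO replicate 1. ADAMTS7 had 1978, 2251 and 2174 in DMSO and 1779, 2053 and 2157 with CA4, with a log2 fold change of -0.10 (95% interval -0.33 to 0.14, limma adjusted p = 0.607). In GENCODE 29, 8.92% of its 50-base words also occur in the pseudogene ADAMTS7P3 and smaller shares in ADAMTS7P1 and ADAMTS7P4, each with a mean under 3 normalized counts. Of the enzymes that cut versican and aggrecan, ADAMTS15 was the most abundant. It had 2095, 2727 and 1722 normalized counts in DMSO and 1476, 2253 and 1598 with CA4, with a log2 fold change of -0.30 (95% interval -0.78 to 0.19, limma adjusted p = 0.443). ADAMTS1, another of this group, lies outside the rule for naming genes and is given after its values were seen. It had 832, 298 and 415 in DMSO and 1132, 663 and 719 with CA4, with a log2 fold change of 0.79 (limma: SE 0.37, adjusted p = 0.256). DMSO replicate 1 was above CA4 replicates 2 and 3, and without that library the log2 fold change was 1.21 (limma adjusted p = 0.0426). It was 0.47 without DMSO replicate 2 (limma adjusted p = 0.556) and 0.56 without CA4 replicate 1 (limma adjusted p = 0.522).

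The procollagen N-propeptidases ADAMTS2, ADAMTS3 and ADAMTS14 had log2 fold changes of 0.71, 0.11 and -0.04, each with an interval that includes 0. ADAMTS4, ADAMTS5 and ADAMTS9 had group means of 10.6 to 58.5 normalized counts and log2 fold changes of 0.62, 0.06 and -0.13, also with intervals that include 0. MMP11, MMP19 and MMP28, secreted MMPs outside the gelatinases, had log2 fold changes of -0.33, 0.08 and 0.43 with limma adjusted p-values from 0.55 to 0.927. With 1 library left out these ran from -0.64 to -0.092 for MMP11, from -0.24 to 0.30 for MMP19 and from 0.085 to 0.63 for MMP28. In GENCODE 29, 17.4% of the exon bases of MMP19 overlap TMEM198B on the opposite strand.

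**Figure D5:**
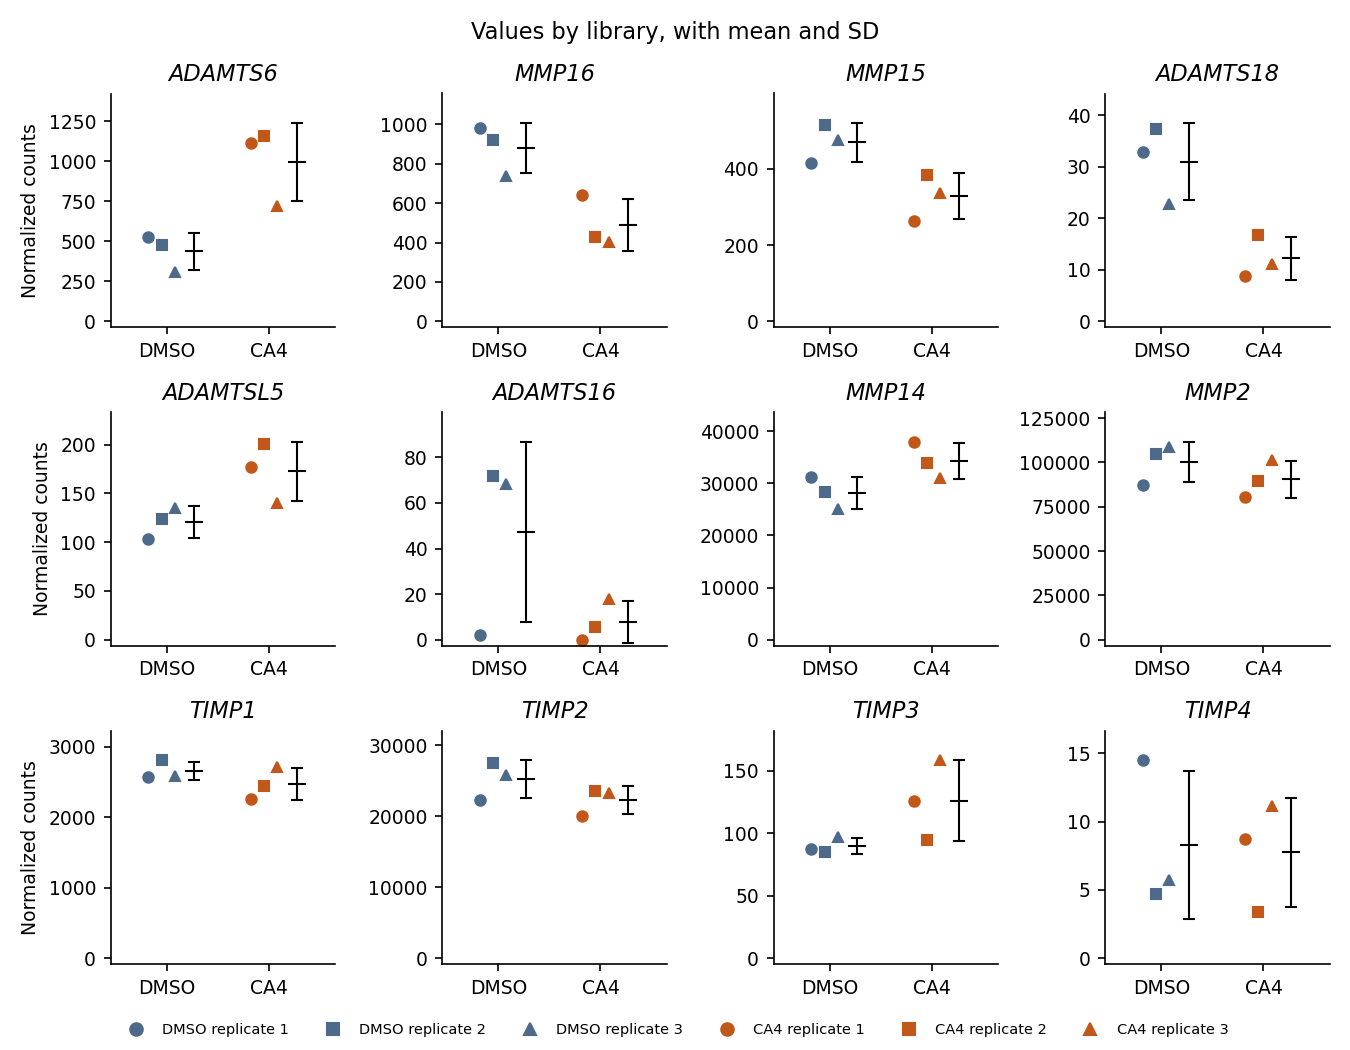
Normalized counts in each library for 12 genes, 1 point per library with the replicate number as the shape, and the mean with SD beside each group; every panel has its own linear axis. The groups are separate in ADAMTS6, MMP16, MMP15, ADAMTS18 and ADAMTSL5, and DMSO replicate 1 sits at 1.93 in ADAMTS16 beside 72 and 68.4 in the other DMSO libraries.

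ADAMTS-like proteins are not proteinases, and 4 of the 5 genes were tested. ADAMTSL5, a secreted protein that binds fibrillin, had 103, 124 and 135 normalized counts in DMSO and 177, 201 and 140.4 with CA4. The groups were separate, though CA4 replicate 3 lay only just above the highest DMSO library. The log2 fold change was 0.51 (limma: SE 0.20, adjusted p = 0.18). ADAMTSL1 was the most abundant ADAMTSL gene per kilobase, at 140.02 ± 27.2 normalized counts per kilobase in DMSO and 122 ± 7.39 with CA4 (SD, n = 3 each). Its normalized counts were 2294, 1889 and 1553 in DMSO and 1736, 1699.9 and 1546 with CA4. The log2 fold change was -0.19 (95% interval -0.52 to 0.15, limma adjusted p = 0.484). ADAMTSL3 and ADAMTSL4 had log2 fold changes of 0.09 and 0.01. The 95% interval of ADAMTSL3 ran from -0.17 to 0.36, which leaves a 2-fold change in either direction outside it.

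Replicate 1 was often at the same end of both groups. In 19 of the 34 tested genes, 55.9%, replicate 1 was the highest or the lowest library in both groups, beside 40.1% of all tested genes. For replicates 2 and 3 this held in 12 and 8 of 34, beside 31.5% and 26.4%. The 19 genes include MMP2, MMP14, TIMP1, TIMP2, ADAMTS1, ADAMTS10, ADAMTS16 and MMP11. What the replicate number stands for was not tested.

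Other genes of the pathway were taken from 4 lists, which the present genes are not part of. Of 67 tested genes in them, 7 passed the threshold (5 higher and 2 lower), beside 4.94% of all tested genes, and the median log2 fold change was 0.10. The list of ADAM and astacin proteinases with the iRhom cofactors of ADAM17 had 1 of 11 past the threshold, with a median of 0.07. That gene was ADAM19, a membrane-bound sheddase. It had 10971, 9645 and 9368 normalized counts in DMSO and 17644, 16901 and 13750.5 with CA4, with no overlap. This was a log2 fold change of 0.68 (limma: SE 0.11, adjusted p = 0.0217). ADAM17, which sheds tumour necrosis factor and ligands of the epidermal growth factor receptor, had a log2 fold change of 0.07 (limma adjusted p = 0.816), and ADAM10 one of -0.26 (limma adjusted p = 0.147).

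Activators, inhibitors, binding partners and modifiers of these enzymes formed the second list, where 1 of 19 passed in limma, PLAUR, with a median of 0.02. Of the 19 log2 fold changes, 11 were above 0 and 8 below. With edgeR 1 of 19 passed and with DESeq2 3 of 19, beside 4.62% and 11.6% of all tested genes. PLAUR, the receptor that holds urokinase at the cell surface, had 1343, 864 and 826 normalized counts in DMSO and 3109, 1787 and 2016 with CA4, a log2 fold change of 1.18 (limma: SE 0.25, adjusted p = 0.043). Every CA4 library lay above every DMSO library. Furin, a protease that activates membrane-anchored MMPs, had a log2 fold change of -0.18 (limma adjusted p = 0.184). RECK, a membrane-anchored inhibitor of MMPs, had one of -0.23 (limma adjusted p = 0.318), and BSG, an inducer of MMPs on neighbouring cells, -0.08 (limma adjusted p = 0.662).

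Matrix substrates had a median log2 fold change of 0.08, with 0 of 18 past the threshold in limma and 2 at an unadjusted p under 0.05 (THBS1 and COL4A1). With edgeR 0 passed (3 at an unadjusted p under 0.05), and with DESeq2 2 of 18, FN1 and THBS1, a share near the 11.6% of all tested genes. VCAN, the versican cut by several ADAMTS enzymes, had a log2 fold change of -0.14 (95% interval -0.46 to 0.17, limma adjusted p = 0.577). Aggrecan, brevican and neurocan were too low to be tested. Transcription factors known to bind promoters of metalloproteinase genes made up the last list. Like the other lists, it was written with earlier results of these data known, so its shares are no test of enrichment. In this list 5 of 19 passed the threshold in limma, 3 higher and 2 lower, beside 4.94% of all tested genes, 2.97% higher and 1.97% lower. With edgeR 4 of 19 passed and with DESeq2 8 of 19, beside 4.62% and 11.6% of all tested genes. At an unadjusted p under 0.05 there were 13 of 19 (23.0% of all tested genes), and the groups did not overlap in 14 of 19 (27.7%). The median log2 fold change was 0.40, beside -0.0082 for all tested genes. FOSL2, an AP-1 subunit, had 3078, 2529.9 and 2048 normalized counts in DMSO and 4541, 4856 and 4506 with CA4, a log2 fold change of 0.88 (limma: SE 0.14, adjusted p = 0.0198). JUNB, its partner in AP-1, and ATF3 rose by 0.51 and 1.77 on the log2 scale (limma adjusted p = 0.0471 each). ETV1, an ETS factor, had 301, 436 and 348 in DMSO and 145, 150.4 and 134 with CA4, and fell by 1.32 on the log2 scale (limma: SE 0.17, adjusted p = 0.0109). RUNX2, known to drive MMP13 in bone, fell by 1.47 on the log2 scale (limma: SE 0.27, adjusted p = 0.0291), from 868 ± 150 to 326 ± 132 normalized counts (SD, n = 3 each), and MMP13 itself had no read in either group. The calls depended on single libraries and on the method. JUNB had a limma adjusted p of 0.0534 under 75th percentile scaling. Under quantile normalization and same total scaling, JUNB (0.0641 and 0.0727) and PLAUR (0.0519 and 0.0538) had limma adjusted p-values above 0.05, and ATF3 had an edgeR adjusted p of 0.052. Without DMSO replicate 3 the limma adjusted p of each of the 7 was above 0.05, and without CA4 replicate 1 that of ETV1 alone was below it. Without DMSO replicate 1 all 7 passed, among 13 of the listed genes.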

How the data were processed

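Gene expression was measured by polyA RNA sequencing in 6 libraries, 3 for each treatment. The deposited values are a signal, gene counts that the authors divided by a factor of each library (normalized counts). Per the submitters' processing notes, the tools included Trim Galore 0.6.6, FastQC 0.12.1, Salmon 1.8.0, STAR 2.7.9a and DESeq2 1.44.0 with the build GRCh38. Their roles, the annotation and the use of strand are not given in the sources used here. In each library 100% of values were whole multiples of 1 step within 0.01 reads, which gave back whole reads. IDs were given symbols from a supplied list that holds 35803 of the 38900, 5830 of them with the ID as its own symbol.

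Genes with a mean of at least 10 were tested with limma 3.58.1 (R 4.3.3) on log2(normalized count + 1), with treatment as the only term, a variance trend and Benjamini-Hochberg adjustment over all 13928 genes. The threshold was 0.05, two-sided. Errors are standard deviations of 3 libraries or limma's moderated standard errors. The replicates are separate libraries of 1 cell line and nothing says that they are separate cultures, so p-values measure the spread between these libraries. Named genes are those past the threshold, with an unadjusted p under 0.05, a log2 change of at least 1 in size, a mean of at least 1000, or a TIMP name, and listed genes past the threshold. The listed genes ADAM10, ADAM17, BSG, FURIN, RECK and VCAN are printed outside this rule. Alternatives were other pseudocounts (0.1 and 5), filters, scalings and variance models, a replicate block, leaving out each library, and edgeR 4.0.16 and DESeq2 1.42.0 on the recovered reads. The scripts were tested on simulated data. Some listed genes are not reported here. Members and lists were chosen with earlier results of these data known.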

Additional observations from a re-analysis of the deposited data

How the results depend on the processing

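Against 688 genes past the threshold, 1 of them in the family and 7 in the pathway lists, the counts were 48, 0 and 0 without a filter on low values (5 and 19 of the latter sets at an unadjusted p under 0.05), and 103, 0 and 1 without the variance trend (5 of the family unadjusted). On the recovered reads edgeR gave 643, 1 and 6, and DESeq2 1613, 2 and 14, with no adjusted p for 823 genes. The family count was 2 (ADAMTS6 and MMP16) with a mean of at least 50, with 75th percentile scaling and with the robust variance prior, and under same total scaling MMP16 was the 1 gene called. Leaving out 1 library gave 81 to 994 genes, 0 to 2 of the family and 0 to 13 of the lists, in limma. ADAMTS1 and ADAMTS6 passed without DMSO replicate 1, MMP16 without CA4 replicate 1, and no family member without any other library, where 2 to 6 had an unadjusted p under 0.05. The log2 fold change of ADAMTS12 ranged from -0.019 (without DMSO replicate 1) to 0.30 when 1 library was left out, and the cause was not tested. Leaving out 1 library moved 28 of the 34 tested members by over 1.5 times, all but ADAMTS6, ADAMTS18, ADAMTSL5, MMP14, MMP15 and MMP16. Of the 28, 11 changed sign, within -0.50 (ADAMTS9) and 0.52 (MMP1). Ranges of the others were -0.48 to -0.12 for ADAMTS15, -0.16 to -0.018 for ADAMTS7, -0.33 to -0.046 for ADAMTSL1, -0.24 to -0.067 for MMP2, -0.18 to -0.045 for TIMP1, -0.26 to -0.097 for TIMP2, 0.28 to 0.65 for TIMP3, 0.22 to 0.98 for ADAMTS2, 0.054 to 1.04 for ADAMTS4, 0.049 to 0.14 for ADAMTSL3, -0.61 to -0.13 for MMP9, -0.64 to -0.092 for MMP11, 0.18 to 0.60 for MMP24 and 0.085 to 0.63 for MMP28, beside those given above for ADAMTS1, ADAMTS10 and ADAMTS16. Of the 34 tested members, 12 changed sign under at least 1 alternative, 7 of them under a scaling and 1 to 6 without any 1 library. Scaling to the same total turned ADAMTS5 to -0.034, ADAMTSL3 to -0.0085, ADAMTSL4 to -0.092 and MMP19 to -0.026. Under 75th percentile scaling ADAMTSL4 was at -0.024, and it also turned with DESeq2. Quantile normalization turned ADAMTS14 to 0.0037, MMP17 to 0.042 and MMP25 to 0.071. ADAMTS3, ADAMTS9, MMP1 and MMP10, like ADAMTS12, turned only when a library was left out. Of the 6 listed genes printed without a call (ADAM10, ADAM17, BSG, FURIN, RECK and VCAN), ADAM17 turned to -0.034 with the same total and to -0.080 without DMSO replicate 3, and BSG to 0.0035 without DMSO replicate 2. Same total scaling moved the median of all tested genes from -0.0082 to -0.11, and the share of calls that were higher from 60% to 34.8%.

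Same-numbered libraries had correlations of deviations from the group means of 0.202, 0.159 and 0.059. Those of differently numbered libraries ran from -0.214 to 0.0741. The main fit had no replicate term because the labels do not tie equal numbers to the same culture. Whether the libraries are paired was not tested. The replicate block gave 2397 genes, 6 of the family (ADAMTS1, ADAMTS6, ADAMTS16, MMP14, MMP15 and MMP16) and 21 of the lists.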

Other observations

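In 4 low members of the family 1 CA4 library stood above the other 5 libraries, and these genes were picked after their values were seen. ADAMTS4, an aggrecan-cutting enzyme, had 109 normalized counts in CA4 replicate 3 and 26.6 to 39.3 in the other 5 libraries. ADAMTS2, a procollagen N-propeptidase, had 51.6 in CA4 replicate 2 and 13.5 to 18.9 elsewhere. ADAMTS17 had 16 recovered reads in CA4 replicate 1 and 0 to 3 in each of the others, and ADAMTS8 had 15 reads there and 3 to 7 in the others. ADAMTS14, which is not a low gene and had a log2 fold change of -0.04, was at 580.4 normalized counts in DMSO replicate 1 and at 273 to 419 in the rest.

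ADAMTS6, past the threshold, and ADAMTS12, the most abundant ADAMTS gene per kilobase, both lie on chromosome 5, as do ADAMTS16, ADAMTS2 and ADAMTS19. Their log2 fold changes ran from -2.30 for ADAMTS16 to 1.19 for ADAMTS6, and ADAMTS19 had no read.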
